A study of Mus musculus with 8 samples.

Results

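Heat shock and chaperone genes were followed in long-term hematopoietic stem cells (LT-HSC) of aged mice. The set was a list of 10 genes chosen by name: Hspa8, Hsp90ab1, Hspa5, Hspd1 and Hspe1, which most cells transcribe at all times, and Hspa1a, Hspa1b, Dnajb1, Hsph1 and Hsp90aa1, which are known for induction by heat or protein damage. The first 5 are called constitutive here and the second 5 stress-induced, from textbook knowledge and not from these values. Of the 10 listed genes, 9 were analysed among 18174 gene symbols in the tables. Hspa1b was not analysed here.

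All cells came from male C57BL/6J wild-type mice aged 18 months that had received no treatment. Marrow from several pooled bones was depleted of lineage-positive cells, and single LT-HSC were sorted as lineage-negative cells positive for CD150, Kit and Sca1 and negative for CD48 and CD34, and as Dlk1+ or Dlk1-, into wells of plates, where Dlk1 is a surface protein of the Delta-like family. The mCEL-Seq2 method counts 3′ ends of polyadenylated RNA with unique molecular identifiers (UMIs). Each sort gave 4 libraries, replicates 1 and 2 from a plate numbered 5 and replicates 3 and 4 from a plate numbered 6. No label ties a library to an animal, and p-values therefore measure only the spread between libraries, which may be technical.

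Molecular chaperones bind unfolded stretches of other proteins and let them fold, often in cycles driven by ATP. Under heat or protein damage the factor HSF1 is released from chaperones, forms trimers and binds inverted repeats of the letters GAA in front of heat shock genes. The endoplasmic reticulum (ER) has its own branch, the unfolded protein response, which acts on the ER chaperone Hspa5. Blood stem cells make protein slowly, and protein quality control has been studied in them for that reason.

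The upstream sequences of 4 of the genes are shown because they hold the motifs found, a heat shock motif for inducible genes and for the mitochondrial pair alike, and an ER stress element for Hspa5. The sequences are from RefSeq, build GRCm38.p6, and read 5′ to 3′ on the strand of the gene. Capitals mark the matched motif. The first line is the 250 bases before the start of Hspa1a, chr17:34972157-34972406 on the minus strand. Next come 30 bases around the motif of Hsph1, chr5:149636351-149636380 on the minus strand. The third line is a stretch of 30 bases between the Hspe1 start and the downstream of 2 Hspd1 starts, chr1:55088048-55088077, on the plus strand. The fourth is the ER stress element of Hspa5, chr2:34772019-34772048 on the plus strand.
Hspa1a: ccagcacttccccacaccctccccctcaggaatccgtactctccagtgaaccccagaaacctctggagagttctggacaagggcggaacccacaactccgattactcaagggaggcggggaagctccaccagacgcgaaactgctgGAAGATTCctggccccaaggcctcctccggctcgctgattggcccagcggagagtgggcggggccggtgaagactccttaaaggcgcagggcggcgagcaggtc
Hsph1: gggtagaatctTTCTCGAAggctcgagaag
Hspe1: gccacggtccgTTCTAGAACCTTCCGGAAg
Hspa5: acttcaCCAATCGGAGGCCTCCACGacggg

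The motifs searched on both strands were GAANNTTC and TTCNNGAA, which overlap in longer repeats, and the ER stress element, which joins CCAAT and CCACG by 9 free bases. Promoter entries of 300 bases were matched for 7 of the 10 genes, and Hspa8, Hsp90ab1 and Hsp90aa1 had none. A heat shock motif was present in at least 1 entry of 5 of these 7 genes, Hspa1a, Hspa1b, Hsph1, Hspd1 and Hspe1. The Hspd1 entry with its start at position 55088243 held none. The count of 5 is by gene, while the shares over promoters are by entry. Of 32851 promoters in the table, 12.8% held either form, 6.69% GAANNTTC and 7.17% TTCNNGAA. The Hspa1a motif lay 104 bases before the start, and the Hsph1 motif 33 bases before the nearer of its entries' starts. Hspe1 and Hspd1, which are transcribed away from each other, share one run of overlapping motifs. It lies 79 to 89 bases before the Hspe1 start and 134 to 144 bases before the Hspd1 start at position 55087932. Hspa5 held no heat shock motif and was 1 of 37 promoters (0.113%) with the ER stress element, 65 bases before its start. Longer annotated models of Hsph1 and Hspd1 begin further upstream, so the sites of these genes lie inside their full annotated span. Neither Dnajb1 entry held any of the 3 motifs. The 250 bases before Hspa1a and Hspa1b were identical at 247 positions and differed at 3.

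Among the barcodes of each library's own sort, 541 wells with at least 1000 transcripts were kept, 220 Dlk1+ and 321 Dlk1-. The libraries held 26 to 96 cells and 39073 to 517559 transcripts, with Dlk1+ replicate 3 the shallowest. Levels are given as CPM, the transcripts of a gene in every 1000000 transcripts of the library. Dlk1 itself followed the labels, at 358 to 639 CPM in the Dlk1+ libraries and 3.86 to 50.3 in the Dlk1- libraries. All 12 markers on the HSC list were detected, summing to 2390 to 3251 CPM in each library. Summed erythroid, B cell, T cell, stromal, endothelial and hepatic markers stayed at or below 149 CPM in every library, and megakaryocyte markers lay between 223 and 779. Myeloid markers summed to 0 to 371 CPM in 7 libraries and to 5821 in Dlk1+ replicate 4. The genes Gm10800 and Gm26870 took 10.1% to 32.8% of a library.

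One well of Dlk1+ replicate 4 bears on several of the chaperones, most of all on Hspa1a. It held 36327 UMIs, against 14443 in the next cell, and 6597 genes, against at most 4106 elsewhere. Myeloid markers made 6.65% of its UMIs, led by 784 UMIs of S100a9 and 771 of S100a8, against 0.0304% over all other cells. HSC markers made 0.105% against 0.283%, and Mecom and Dlk1 were at 0. The well held 41 of the 61 Hspa1a UMIs of its library, 52 of the 243 Hspa5 UMIs and 14 of the 80 Hspd1 UMIs. Without it the myeloid markers of the library summed to 495 CPM. Results on Hspa1a and Hspa5 are therefore given with and without this well. Hspd1 in Dlk1+ replicate 4 was at 175 CPM with the well and at 157 CPM without it.

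The 9 genes made 0.362% of all transcripts, between 0.298% and 0.594% of a library. The method tags each transcript once at its 3′ end, so CPM was compared between genes without a length correction. The plot of levels by library shows them by class.

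**Figure D1:**
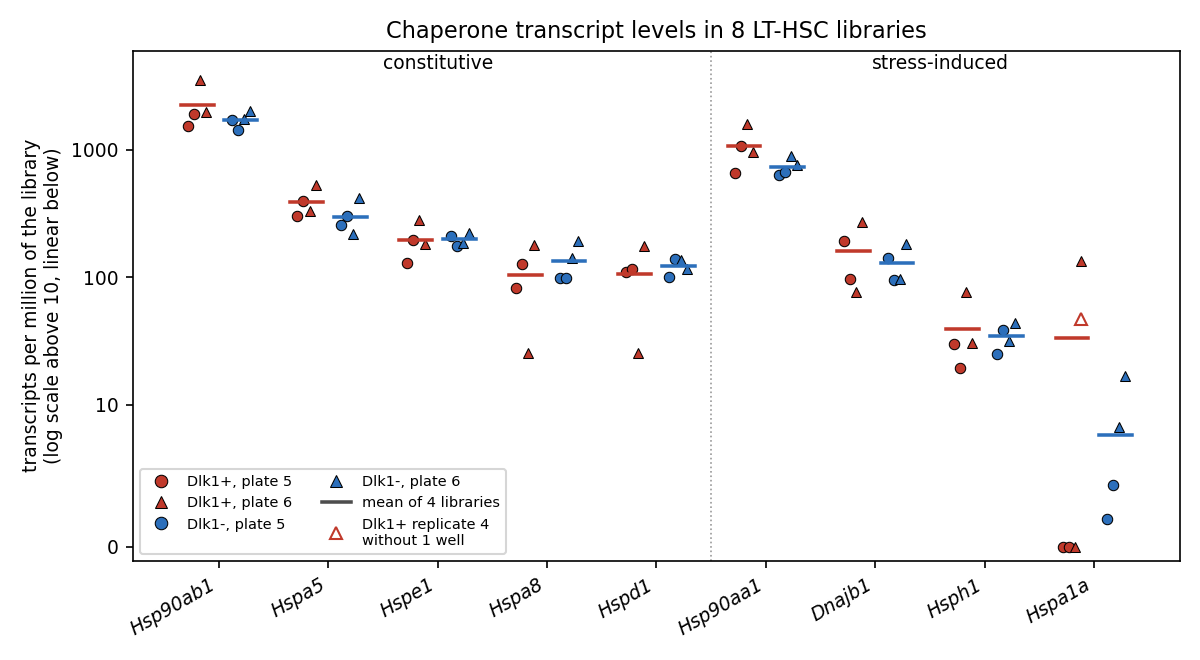
Level of each analysed chaperone in CPM (vertical axis, log scale above 10 and linear below), with Dlk1+ libraries in red and Dlk1- in blue, circles for plate 5, triangles for plate 6 and bars for the mean of 4 libraries. Hsp90ab1 sits highest, between 1445 and 3507, and Hspa1a lowest, at 0 in 3 Dlk1+ libraries and at 133.5 in the fourth, or 47.7 without 1 well (open triangle).

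Cytosolic Hsp90 dominated the set. Hsp90ab1, at chr17:45567778-45573261 on the minus strand, encodes the constitutive form of this ATP-driven chaperone of kinases and steroid receptors. It was at 1539, 1922, 3507 and 1988 CPM in Dlk1+ replicates 1 to 4 and at 1722, 1445, 1752 and 2012 CPM in Dlk1- replicates 1 to 4. The shallow Dlk1+ replicate 3 was the highest and the other 7 libraries lay close together, with the sorts overlapping. Of the 30-base windows in the last 500 bases of Hsp90ab1, 19.7% also occurred in transcripts of other genes, so a part of its count may be shared with copies. Its mean was 1986 ± 647 CPM (SD, n = 8 libraries), 49.8% of all transcripts of the set.

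Hsp90aa1, at chr12:110691036-110696395 on the minus strand, encodes the inducible Hsp90. It was at 665, 1083, 1613 and 963 CPM in the Dlk1+ libraries and at 634, 673, 894 and 761 CPM in the Dlk1- libraries. Although it is grouped with the stress-induced genes, it was the second most abundant member in all 8 libraries, with a mean of 911 ± 326 CPM (SD, n = 8). Together the 2 Hsp90 genes made 71.8% of the transcripts of the set. The ratio of Hsp90ab1 to Hsp90aa1 ranged from 1.77 to 2.72 over the libraries. It averaged 2.08 ± 0.229 in Dlk1+ and 2.37 ± 0.371 in Dlk1- (SD, n = 4 each), a difference that did not exceed the spread (two-sided exact permutation p = 0.257, 0.429 adjusted over 5 such tests; smallest possible 0.0286).

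The cytosolic Hsp70 proteins bind short hydrophobic stretches and hand clients on to Hsp90. Hspa8, the constitutive Hsc70 at chr9:40801276-40805202 on the plus strand, was at 83.4, 127, 25.6 and 179 CPM in Dlk1+ and at 98.6, 99.8, 141 and 195 CPM in Dlk1-. The low value of Dlk1+ replicate 3 rested on 1 UMI, and the sorts overlapped. Hspa8 is among the most abundant chaperones in many cell types, and here its mean of 119 ± 54.4 CPM (SD, n = 8) was far under that of either Hsp90. Of the 30-base windows in its last 500 bases, 85.6% recurred in transcripts of 13 other genes, most of them in the copy Gm15459. How reads with several matches were assigned is not given in the sources used here, so the level of Hspa8 is uncertain.

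Hspa1a, the heat-inducible Hsp70 at chr17:34969359-34972156 on the minus strand, was the least abundant member. It had 0 UMIs in Dlk1+ replicates 1, 2 and 3, which allows levels of up to 8.16, 30.1 and 77.9 CPM for counting error alone, and 61 UMIs in Dlk1+ replicate 4. The Dlk1- libraries held 1, 1, 4 and 8 UMIs. Dlk1+ replicate 4 stood at 133.5 CPM, and at 47.7 CPM without the well of most UMIs, still above the Dlk1- libraries at 1.93, 4.34, 8.41 and 16.8 CPM. Over all libraries 18 of 541 cells held any Hspa1a UMI. In Dlk1+ replicate 4, where 8 cells held one, the second highest cell had 10 UMIs. No Hspa1a UMI was seen on 728 barcodes that carried no cell, but these held only 23663 UMIs in all, too few to measure a level this low. In the Dlk1- libraries 10 further barcodes, left out of the kept cells, held 1 Hspa1a UMI.

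Dnajb1 and Hsph1 work with Hsp70, Dnajb1 as the Hsp40 that stimulates its ATPase and Hsph1 as a nucleotide exchange factor of the Hsp110 family. Dnajb1, at chr8:83608175-83612653 on the plus strand, was at 192.1, 97.6, 76.8 and 274 CPM in Dlk1+ and at 141, 95.5, 96.7 and 182 CPM in Dlk1-. In both sorts replicate 4 was the highest library and replicate 1 the next, and the sorts overlapped. Hsph1, at chr5:149616843-149636498 on the minus strand, was at 30.3, 19.5, 76.8 and 30.6 CPM in Dlk1+ and at 25.1, 39.1, 31.5 and 44.0 CPM in Dlk1-. Its counts were low, 2 to 21 UMIs per library, so the high value of Dlk1+ replicate 3 rested on 3 UMIs. Of the induced genes analysed, Dnajb1 averaged 144 ± 67.5 CPM and Hsph1 37.1 ± 17.7 CPM (SD, n = 8).

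Hspa5, at chr2:34772090-34776529 on the plus strand, encodes BiP, the Hsp70 of the ER. It was at 306, 400.1, 333 and 532 CPM in the Dlk1+ libraries and at 257, 304, 219 and 421 CPM in the Dlk1- libraries. Without the well of most UMIs, Dlk1+ replicate 4 fell from 532 to 455 CPM and stayed the highest library. It was the third most abundant member in 8 of 8 libraries, with a mean of 346 ± 101 CPM (SD, n = 8), and none of its 3′ windows recurred in another gene.

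Hspd1 and Hspe1 encode the Hsp60 barrel and the Hsp10 lid of the mitochondrial chaperonin and lie head to head on chromosome 1, at chr1:55077833-55088243 on the minus strand and chr1:55088148-55091317 on the plus strand. Hspd1 was at 111, 117, 25.6 and 175 CPM in Dlk1+ and at 100.5, 139, 137 and 117 CPM in Dlk1-. Hspe1 was at 129, 195, 282 and 184 CPM in Dlk1+ and at 213, 178, 187 and 224 CPM in Dlk1-. In Dlk1+ replicate 3 they went apart, with Hspd1 lowest of 8 on 1 UMI and Hspe1 highest on 11 UMIs. In Hspe1, 69.9% of the 3′ windows recurred in transcripts of 7 other genes, so its mean of 199 ± 43.7 CPM (SD, n = 8) is less certain than the 115 ± 42.9 CPM of Hspd1.

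The order of the means was therefore Hsp90ab1, Hsp90aa1, Hspa5, Hspe1, Dnajb1, Hspa8, Hspd1, Hsph1 and Hspa1a. The first 3 steps held in every one of the 8 libraries. Hspe1 was above Dnajb1 in 6 of 8, and Dnajb1, Hspa8 and Hspd1 did not differ beyond their spread, each step holding in 4 of 8. Hspd1 was above Hsph1 in 7 of 8 libraries, and Hsph1 above Hspa1a in 7 of 8. The division by class was thus not a division by abundance, since Hsp90aa1 of the stress-induced class was above the constitutive Hspa5 in all 8 libraries. Dnajb1 was above Hspa8 and Hspd1 in mean only, and not beyond their spread.

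Among the tested members, the spread between libraries of a sort was largest for Hspd1, Hspa8 and Dnajb1. Hspa1a did not pass the filter on low counts and was left out of this measure. It ran from 0 to 133.5 CPM in Dlk1+. The SD within sorts was taken on log2(1 + CPM), with CPM scaled by the TMM factors given under processing. This SD was 0.90 for Hspd1 and 0.89 for Hspa8, where genes of like level had a median SD of 0.46 and 0.45. Both values include Dlk1+ replicate 3 with its single UMIs. Dnajb1 had an SD of 0.68 against 0.44 for genes of like level, and its value in Dlk1+ replicate 3 rested on 3 UMIs. Hsph1, the scarcest tested member, was at 0.59 against 0.70. Hspa5 at 0.28 against 0.41, Hspe1 at 0.24 against 0.42 and Hsp90aa1 at 0.32 against 0.52 varied less than the median gene of their level, and Hsp90ab1 was at 0.30 against 0.30.

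The comparison of sorts asked whether chaperone transcripts differ between Dlk1+ and Dlk1- LT-HSC of old mice. None of the 8 tested members passed an adjusted p of 0.05, and none had an unadjusted p under 0.05. Across 5666 genes tested, 2 were called (0.0353%), Dlk1 and Timp3, both higher in Dlk1+, and 368 had an unadjusted p under 0.05 (6.49%). Hspa1a did not pass the filter on low counts and was not in this fit. The median log2 fold change (Dlk1+ over Dlk1-) was 0.14 over the 8 members, with 5 above 0, and -0.04 over all genes, with 2562 of 5666 above 0. With Dlk1+ replicate 4 left out 19 genes were called, and 1 gene with either Dlk1+ replicate 2 or Dlk1- replicate 3 left out, none of them members. With no filter on low counts 3 of 17884 genes (0.0168%) were called, again without a member.

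The 3 members with the highest fold changes were Dnajb1, Hsp90aa1 and Hspa5. Dnajb1 averaged 160 ± 90.8 CPM in Dlk1+ and 129 ± 41.5 CPM in Dlk1- (SD, n = 4 each). Its log2 fold change was 0.48, and the 95% interval ran from -0.20 to 1.16 (limma-voom, Benjamini-Hochberg adjusted p = 0.818). Hsp90aa1 averaged 1081 ± 396 against 740 ± 115 CPM, a log2 fold change of 0.44 from -0.05 to 0.93 (limma-voom adjusted p = 0.767). For Hspa5 the averages were 393 ± 101 and 300.2 ± 87.9 CPM, with a log2 fold change of 0.42 from -0.08 to 0.92 (limma-voom adjusted p = 0.781). Without the well of most UMIs the Dlk1+ average of Hspa5 was 373 ± 67.4 CPM. The 3 intervals held 0 and reached up to 2.23-fold for Dnajb1, 1.90-fold for Hsp90aa1 and 1.89-fold for Hspa5.

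The other members were nearer to 0. Hsp90ab1 averaged 2239 ± 868 CPM in Dlk1+ and 1733 ± 232 CPM in Dlk1-, a log2 fold change of 0.26 from -0.21 to 0.72 (limma-voom adjusted p = 0.855). Hspe1, at 197 ± 63.2 and 200.5 ± 21.6 CPM, gave -0.17 from -0.66 to 0.32. Hspa8, at 104 ± 65.3 and 134 ± 45.4 CPM, gave -0.16 from -0.83 to 0.50, while Hspd1 at 0.03 from -0.61 to 0.67 and Hsph1 at -0.01 from -0.74 to 0.72 had no steady sign across alternative settings. The plot of fold changes shows all 8. No member had sorts that did not overlap in CPM, against 178 of 5666 genes (3.14%).

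**Figure D2:**
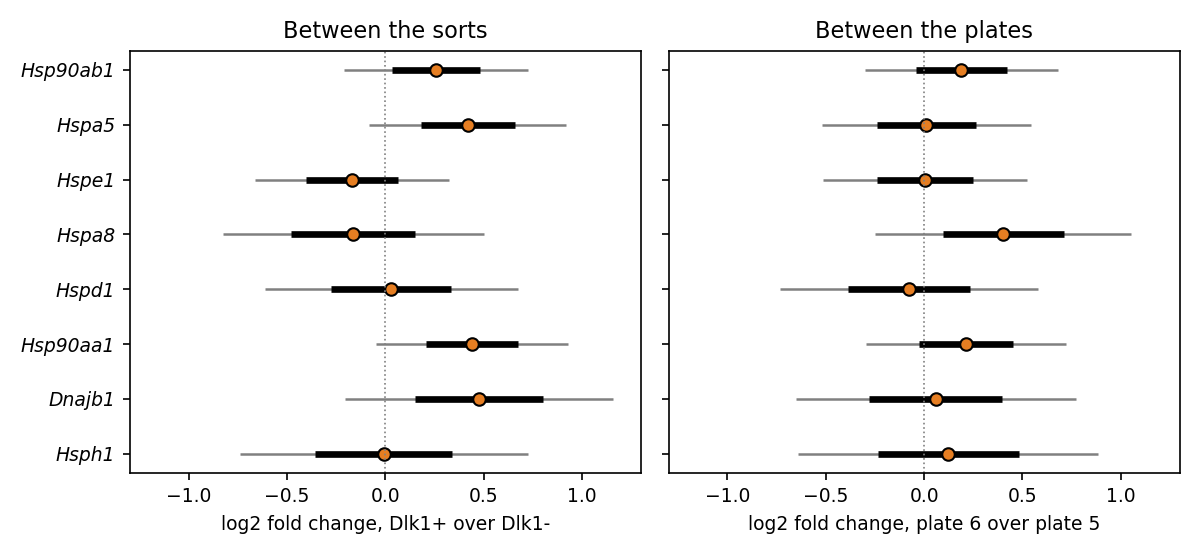
Log2 fold change of the 8 tested members, Dlk1+ over Dlk1- (left) and plate 6 over plate 5 (right), with the point as the estimate, the thick bar as 1 SE either way and the thin bar as the 95% interval. Every interval includes 0 in both panels, and the values run from -0.17 to 0.48 between sorts and from -0.08 to 0.40 between plates.

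Each plate held 2 libraries of each sort, so the plates could be compared with the sort in the model. No gene was called between plates (0.00% of 5666), 146 had an unadjusted p under 0.05 (2.58%) and no member was among them. Without Dlk1+ replicate 3, 1 gene was called, which was not a member. The log2 fold change (plate 6 over plate 5) was 0.40 (SE 0.31) for Hspa8, 0.21 (SE 0.24) for Hsp90aa1 and 0.19 (SE 0.23) for Hsp90ab1, and between -0.08 and 0.12 for the other 5. The median was 0.09 over the members and -0.03 over all genes. No member had plates that did not overlap in CPM, against 204 of 5666 genes (3.60%). The difference of the sort effect between plates was also tested. That test called no gene at all, and its limma-voom adjusted p was 1.00 for each of the 8 members.

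Hspa1a was compared over libraries as a single value. Its mean was 33.4 ± 66.8 CPM in Dlk1+ and 7.86 ± 6.51 CPM in Dlk1- (SD, n = 4 each; exact permutation p = 1.00), and the Dlk1+ mean was 11.9 ± 23.8 CPM without the well of most UMIs. By plate it was 39.7 ± 62.9 CPM on plate 6 and 1.57 ± 2.06 CPM on plate 5, or 18.2 ± 20.8 CPM on plate 6 without the well (exact permutation p = 0.143 both times, 0.357 adjusted over 5 tests). The libraries above 5 CPM were the deep ones of plate 6, and the shallow Dlk1+ replicate 3 of that plate was at 0. When no filter was applied, 14 of 17884 genes (0.0783%) were called between plates, Hspa1a among them (log2 fold change 3.04, SE 0.69, limma-voom adjusted p = 0.0328). Without the well the log2 fold change was 2.44 (SE 0.67) and the limma-voom adjusted p was 0.360, so that call rested on 1 well.

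Most cells held Hsp90 transcripts and few held the inducible Hsp70. Each cell with at least 2000 UMIs was thinned to 2000, because the share of cells with a UMI depends on depth. Thinned values here and below are from a single random draw, and their spread over draws was not tested. In thinned cells Hsp90ab1 was seen in 97.5% ± 3.08 of Dlk1+ cells and 95.5% ± 1.60 of Dlk1- cells, and Hsp90aa1 in 80.7% ± 13.0 and 72.8% ± 4.98 (SD over 4 libraries each). Hspa5 was seen in 50.7% ± 4.41 of Dlk1+ and 38.7% ± 10.4 of Dlk1- cells. The ranges of the sorts overlapped, at 45.1% to 55.7% and 26.1% to 51.1%. Unthinned, the Hspa5 shares were 56.8% and 60.7%, in the other order, with the shallow Dlk1+ replicate 3 at 30.8%. The thinned Dlk1+ means include only 4 cells of that library. No order of the sorts was read from these shares.

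The scarcer members were seen in a minority of thinned cells. Over the 8 libraries the share averaged 38.2% ± 17.9 for Hspe1, 22.4% ± 11.5 for Dnajb1, 20.1% ± 8.58 for Hspd1, 19.7% ± 11.8 for Hspa8, 8.01% ± 7.04 for Hsph1 and 1.35% ± 2.17 for Hspa1a (SD, n = 8). Dlk1+ replicate 3 entered these means with only 4 cells. Over all 541 cells without thinning, the shares were 51.2% for Hspe1, 41.6% for Dnajb1, 39.0% for Hspd1, 42.1% for Hspa8, 12.8% for Hsph1 and 3.33% for Hspa1a. Barcodes that carried no cell held 0.162 UMIs of the whole set on average.

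Between cells thinned to 2000 UMIs, Hspa5 and Dnajb1 had the highest spread of the set and Hspa8 the lowest. As a measure, the variance over the mean of UMIs was taken across thinned cells in each of the 5 libraries with at least 50 of them, where counting error alone gives 1 and the median of 5536 genes was 1.04. Without the well of most UMIs, Hspa5 stood at 1.61 (rank 85) and Dnajb1 at 1.59 (rank 90), 1 constitutive and 1 stress-induced gene. By library, with all cells, Hspa5 ranged from 1.07 to 2.09 and Dnajb1 from 0.962 to 1.85, the lowest Dnajb1 value being that of Dlk1- replicate 3. The 2 Hsp90 genes lay lower, Hsp90aa1 at 1.33 (rank 247) and Hsp90ab1 at 1.29 (rank 310). The place of Dnajb1 differed between the settings of thinning. At 1000 UMIs, with all cells, it stood at 1.15, below Hspa5 at 1.42, Hspd1 at 1.27 and Hsp90ab1 at 1.22. It was there also below Hspa1a, at 1.38 over only 2 libraries. Without thinning and without the well, Dnajb1 at 2.41 was below Hsp90ab1 at 3.40, Hsp90aa1 at 2.76, Hspa1a at 2.73 (4 libraries) and Hspa5 at 2.70.

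The remaining members were nearer to counting error. Hspd1 stood at 1.18 (rank 705 of 5536), Hspe1 at 1.11 (rank 1501), Hsph1 at 1.02 (rank 3375) and Hspa8 at 0.959 (rank 4692). Hspa1a was too scarce to be ranked and stood at 1.19 over 4 libraries, with 1.79 in Dlk1+ replicate 4. When the 10 barcodes left out of the kept cells were put back, other Dlk1+ cells were also redrawn in thinning. Hsph1 at 1.01 and Hspa8 at 1.02 then changed places, and the part of the redraw in this was not tested. The plot of spread against mean level places them among all genes. Hspa8 and Dnajb1 thus had like mean levels in thinned cells, 0.294 and 0.400 UMIs, and different spread. The cell with the most Dnajb1 held 11 UMIs among 7641, and it was also among the 4 cells with the most Hspa5, at 13 UMIs.

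**Figure D3:**
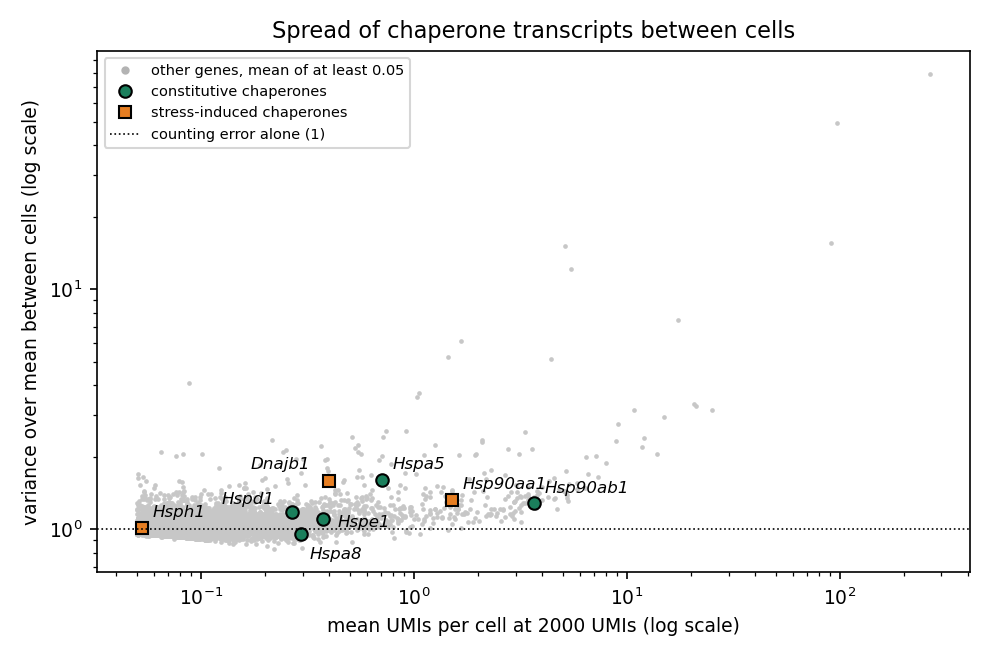
Variance over mean of UMIs between cells thinned to 2000 UMIs, against the mean UMIs per cell (both log scales, averaged over 5 libraries without the well of most UMIs), for constitutive chaperones (green circles), stress-induced chaperones (orange squares) and other genes with a mean of at least 0.05 (grey). Hspa5 at 1.61 and Dnajb1 at 1.59 lie above the dotted line of counting error alone, and Hspa8 at 0.959 lies just under it.

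Co-variation across cells was weak and did not follow the classes. Pearson r was computed on log2(1 + transcripts per 2000) within each of the 5 libraries with at least 50 kept cells and then averaged. The points of a library share its depth and preparation. The mean r was 0.0788 ± 0.050 over the 10 constitutive pairs, 0.0613 ± 0.0481 over the 6 stress-induced pairs and 0.0753 ± 0.0361 over the 20 pairs between the classes (SD over 5 libraries). Pairs within a class were thus no closer than pairs between classes by more than the spread. Across all pairs of 2844 genes seen in at least 20% of cells, the median r was 0.0185 and the 95% quantile 0.116. After thinning to 2000 UMIs the 3 means were 0.0481, 0.0111 and 0.0348. With Gm10800 and Gm26870 left out of the totals, and no thinning, they were 0.0562, 0.0525 and 0.0522.

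The closest pair differed with and without thinning. Hsp90ab1 and Hsp90aa1, the 2 forms of Hsp90 and of different classes here, had the highest mean r without thinning, 0.229 without the well of most UMIs, and it was positive in 5 of 5 libraries from 0.124 to 0.298. Thinned, with all cells, it was 0.0894 and ranged from -0.0710 to 0.234. Hspa1a and Dnajb1, both stress-induced, had 0.159 over the 4 libraries with Hspa1a in any cell, resting on few Hspa1a cells. Thinned, they had the highest mean r at 0.139, from -0.0457 to 0.256. Hspa1a was then seen in only 1, 1, 2 and 5 cells of Dlk1- replicates 1, 3 and 4 and Dlk1+ replicate 4. Next came Hspa5 with Hsp90aa1 at 0.107, Hspa5 with Dnajb1 at 0.106, Hspa5 with Hspd1 at 0.1004 and Hspd1 with Hsp90aa1 at 0.0907. These too were above the Hsp90 pair. Hspe1 with Hsp90aa1 stood at 0.155, Hspe1 with Hsp90ab1 at 0.154, Hsph1 with Hsp90aa1 at 0.153 and Hspa8 with Hsp90ab1 at 0.144. After thinning these were -0.0145, 0.0710, -0.0128 and 0.0708, so the first and the third turned sign. Thinned values are from a single random draw, so whether depth made the new order and these turns was not tested.

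The chaperonin partners were not the closest pair. Hspd1 and Hspe1, barrel and lid of the same chaperonin with neighbouring promoters, had a mean r of 0.117, from 4.5e-05 to 0.206, and 0.0643 after thinning. The lowest pair was Dnajb1 with Hsp90aa1 at -0.0534, both of the stress-induced class. The grid of pairs shows all 36 values. In these sparse counts a low r is no sign that genes vary apart.

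**Figure D4:**
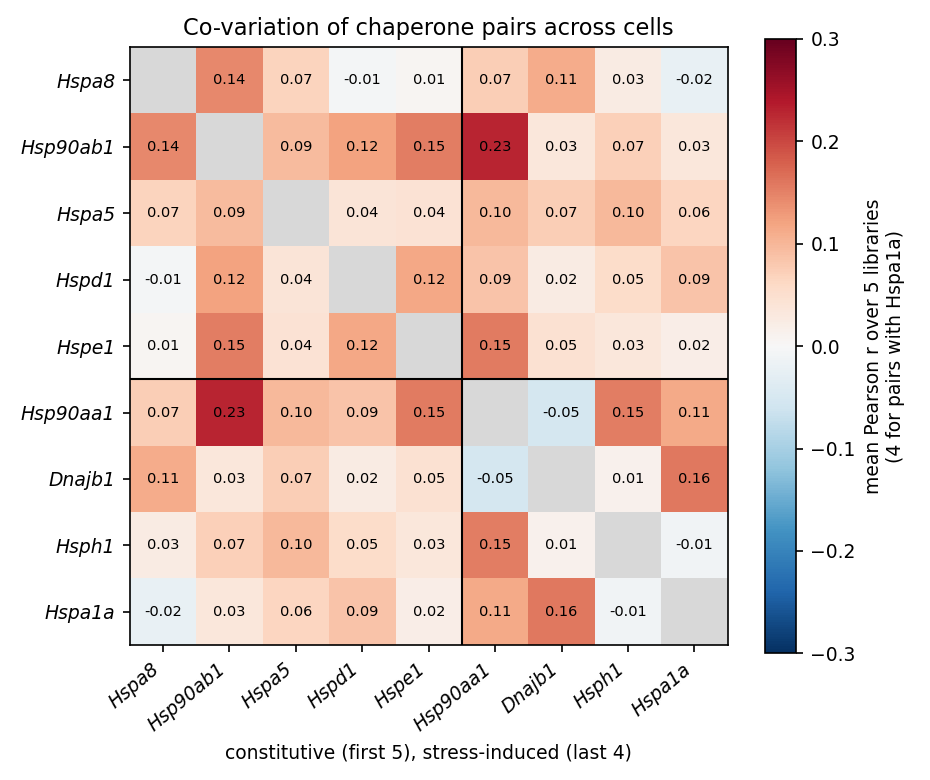
Mean Pearson r of each pair of chaperones across cells (colour and printed value), over 5 libraries without the well of most UMIs (4 libraries for pairs with Hspa1a), with lines between the 5 constitutive and the 4 stress-induced genes. The darkest square is Hsp90ab1 with Hsp90aa1 at 0.23, and neither class forms a block of its own.

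Single members were then set beside summed lists of other genes, without the well of most UMIs. Immediate early genes such as Fos, Jun and Egr1 answer to stimuli within minutes. Dnajb1 had a mean r of 0.248 with their sum, from 0.171 to 0.375 over 5 libraries, and 0.204 after thinning. Hspa5 followed at 0.151, from 0.133 to 0.170, and 0.109 after thinning. Over 2826 genes the median was 0.0146 and the 95% quantile 0.118. Hspa1a stood at 0.0206, Hsph1 at -0.0409, Hsp90aa1 at -0.00149 and Hspd1 at -0.113. After thinning these were 0.0610, 0.0286, 0.0440 and -0.0484, and the 95% quantile was 0.102. Of the 4 stress-induced genes only Dnajb1 was thus above the quantile, with and without thinning. Hspa1a and Hsph1 were scarce, so their low r is no sign that they vary apart from immediate early genes.

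With the sum of cell cycle genes, such as Mcm2, Pcna and Mki67, another member led. Hsp90aa1 had a mean r of 0.231, from 0.178 to 0.286 over 5 libraries, and 0.190 after thinning. Over 2841 genes the median was 0.00974 and the 95% quantile 0.128 after thinning. Without thinning, the median was 0.0310 and the 95% quantile 0.180. Hspd1 followed at 0.173, under that quantile. After thinning it was at 0.0760, above 0 in 3 of 5 libraries. Dnajb1 was at -0.0559, and at -0.0747 after thinning. The plot of these relations shows both lists side by side. Hsp90ab1 instead had its highest r, 0.451 from 0.278 to 0.572, with the share of ribosomal protein transcripts, and 0.283 after thinning. For that share the median gene was at 0.0967 and the 95% quantile at 0.245 without thinning, and at 0.0516 and 0.160 after thinning.

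**Figure D5:**
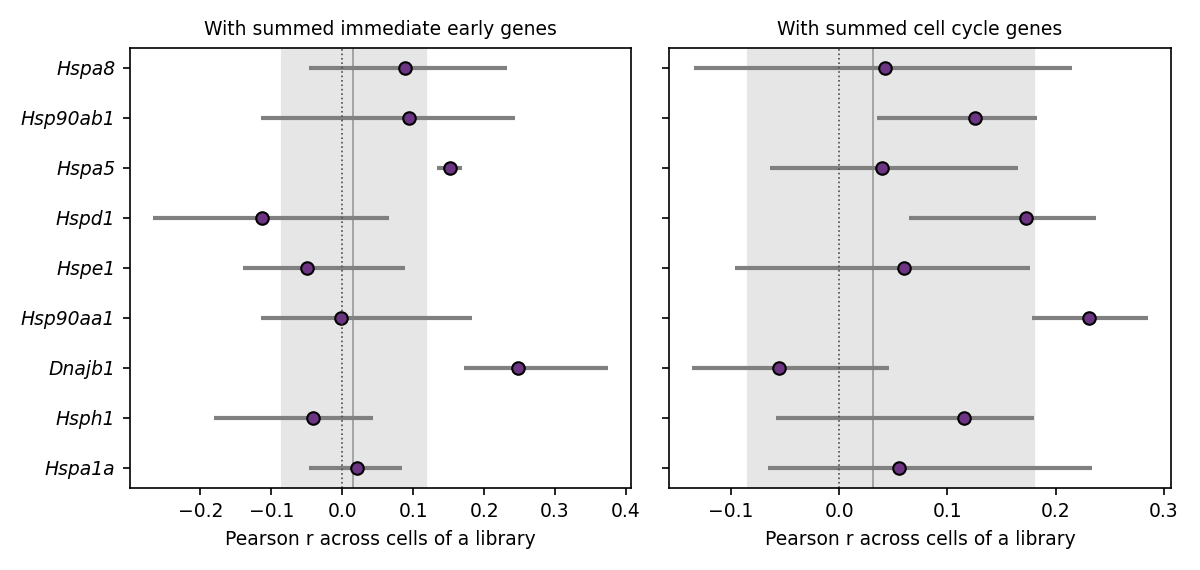
Mean Pearson r (points) and its range over libraries (lines; 5 libraries, 4 for Hspa1a) of each chaperone with the summed immediate early genes (left) and the summed cell cycle genes (right), across cells without the well of most UMIs. The grey band spans the 5% to 95% quantiles over all genes seen in at least 20% of cells and the grey line is their median, with Dnajb1 at 0.248 beyond the band on the left and Hsp90aa1 at 0.231 beyond it on the right.

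The classes as sums were most like different genes. Among 2875 genes, the summed constitutive class was closest to Eef1a1, a translation elongation factor (mean r 0.522), Rps3a1 (0.498), Tpt1 (0.492), Rpl23 (0.480) and Rpl32 (0.470). The stress-induced class was closest to Ptma (0.375), Rpl18 (0.276), Tubb5, a tubulin (0.272), Cfl1, an actin-severing protein (0.266), and Rpl36a (0.263). All 10 were abundant, seen in 81.2% to 99.6% of cells, and such transcripts are measured with less counting error than scarce ones. Hsp90ab1 and Hsp90aa1 carry most of the counts of their classes. The 2 class sums had a mean r of 0.286 with each other, from 0.0391 to 0.463.

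Other chaperone families gave no call between the sorts either. Of 37 cytosolic co-chaperones and HSF1 targets, 24 were tested, 10 were above 0 and the median log2 fold change was -0.04. Fkbp4, an Hsp90 immunophilin, was at 191 ± 183 CPM in Dlk1+ and 112 ± 24.4 CPM in Dlk1-, and Ptges3, the Hsp90 co-chaperone p23, at 141 ± 52.1 and 155 ± 23.6 CPM. The largest fold changes were those of Cacybp (-0.94, SE 0.38, limma-voom adjusted p = 0.701) and Bag5 (0.71, SE 0.37, limma-voom adjusted p = 0.767). Of 28 ER chaperones and unfolded protein response genes, 14 were tested, 7 were above 0 and the median was -0.04. Calr, a calcium-binding ER chaperone, was at 595 ± 123 and 479 ± 41.0 CPM, above Hspa5 in mean level, and Canx, its membrane-bound relative, at 194 ± 61.1 and 177 ± 31.96 CPM. Pdia3 (-0.84, SE 0.44) and Herpud1 (-0.67, SE 0.37) had the largest fold changes there. Cacybp, Pdia3 and Herpud1 were each at 0 CPM in their lowest Dlk1+ library.

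Most tested genes of the mitochondrial and chaperonin lists were below 0, and none was called. Of 15 mitochondrial chaperones and proteases, 11 were tested, 2 were above 0, 2 had an unadjusted p under 0.05 and the median was -0.22. Over all 5666 genes tested, 2562 were above 0 and 6.49% had an unadjusted p under 0.05. Hspa9, the mitochondrial Hsp70, was at 44.6 ± 44.5 CPM in Dlk1+ and 110 ± 6.82 CPM in Dlk1- (log2 fold change -1.01, SE 0.40, limma-voom adjusted p = 0.701), the Dlk1+ libraries ranging from 0 to 101. Lonp1, a mitochondrial protease, gave -0.89 (SE 0.40), and Tomm34 -0.07 (SE 0.29). Of 15 genes of the cytosolic chaperonin TRiC and of prefoldin, which hands actin and tubulin to it, 14 were tested, 4 were above 0 and the median was -0.14. Pfdn5 was at 78.6 ± 40.1 and 154 ± 31.4 CPM (-0.73, SE 0.29, limma-voom adjusted p = 0.701), and Cct6a was at 186 ± 69.1 and 179 ± 29.9 CPM. Cct2 gave -0.55 (SE 0.29) and Cct8 -0.59 (SE 0.38). Lonp1 and Cct8 were also at 0 CPM in their lowest Dlk1+ library. In the shallow Dlk1+ replicate 3 the floor of 3 UMIs was 77.9 CPM.

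The immediate early and ubiquitin stress lists also gave no call. Their fold changes ran from -1.06 to 1.53 and from -0.37 to 1.20. Of 22 immediate early genes, 20 were tested, 9 were above 0 and 5 had an unadjusted p under 0.05, against 6.49% of all genes. Fos was at 2190 ± 438 and 1995 ± 572 CPM, Jund at 2194 ± 1140 and 1126 ± 119 CPM (0.76, SE 0.26, limma-voom adjusted p = 0.701), Atf3 gave 1.53 (SE 0.46, limma-voom adjusted p = 0.576) and Zfp36 -1.06 (SE 0.52). Of 10 ubiquitin and general stress genes, 8 were tested and 6 were above 0, with a median of 0.14. Ubb was at 799 ± 389 CPM in Dlk1+ and 970 ± 170 CPM in Dlk1-. Cdkn1a, the cell cycle inhibitor p21, was at 290 ± 102 CPM in Dlk1+ and 117 ± 45.4 CPM in Dlk1- (1.20, SE 0.31, limma-voom adjusted p = 0.550), with the lowest Dlk1+ library at 173 and the highest Dlk1- library at 172.

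Between the plates, no gene of these lists was called. The cell cycle list, which Hsp90aa1 followed across cells, had 14 of 15 tested genes below 0 on plate 6. Its median log2 fold change was -0.79, and 8 of the 15 had an unadjusted p under 0.05, against 2.58% of all genes. Its part in the plate values of Hsp90aa1, which leaned the other way at 0.21, was not tested. The immediate early list summed to 9691 to 13686 CPM in Dlk1+ and 9182 to 12416 CPM in Dlk1-, and replicate 4, highest for it in both sorts, was also highest for Dnajb1 and Hspa5 in both sorts. The same 2 libraries had the lowest shares of Gm10800 and Gm26870, 10.1% and 11.7%, and the part of that share in these levels was not tested.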

How the data were processed

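Transcripts of single LT-HSC were measured in 8 libraries, 4 of each sort. The authors deposited 1 table per library with 192 barcodes. Its values are another kind of number than whole counts: UMI counts corrected for collisions among 4096 possible UMIs, as tested on the values. Whole UMIs were recovered from every value to within 1e-06. Genome build mm10 and BWA 0.6.2-r126 are named in the submitters' processing notes, which give no role for the tool, and how reads with several matches were assigned is not given in the sources used here.

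Barcodes 1 to 96 were taken for Dlk1+ and 97 to 192 for Dlk1- libraries, without barcodes 17, 20 to 24 and 29 to 32, and wells with at least 1000 transcripts were kept. The barcode set is fixed, so 180 of 182 barcode numbers recur in 2 or more libraries and show no shared cells. No doublet caller was run. Plates come from the table names. Depth ranged from 39073 to 517559 transcripts per library. Intervals and floors cover counting error only, and a floor is 3 UMIs of the library.

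CPM of genes are over transcripts, and CPM of summed marker and gene lists are over UMIs. Transcripts were summed per library, scaled by TMM factors (0.807 to 1.14) and tested with limma-voom (limma 3.58.1, R 4.3.3) on genes passing a filter of 10 counts scaled to depth and a total of 15, with Benjamini-Hochberg adjustment over all genes tested and calls at 0.05. limma-voom took the place of the planned count test on rounded sums, because the deposited values were handled as another kind of number than whole counts. Scripts were tested on simulated data. Python 3.11.15 gave cell measures and exact permutation tests. Gene coordinates are those of RefSeq on GRCm38.p6. 3′ ends were compared with GENCODE M21 transcripts.

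All listed members were named. From each other list the 2 genes of highest mean CPM and the 2 of largest absolute fold change were named, and for each class the 5 genes of highest mean r. One gene that this rule names is not reported here. The members and lists were chosen with earlier results of these data known. Alternatives on scaling, filter, cell minimum, barcodes, depth, blocks and left-out libraries are given at the end. Leaving out the well of most UMIs, with or without thinning, and limma-trend were chosen after seeing the data.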

Additional observations from a re-analysis of the deposited data

Results flagged for a closer look

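Among 36 groups of 4 libraries checked for a single distant library, 3 stood out, where chance gives about 1 in 20. Hspa1a was at 133.5 CPM in Dlk1+ replicate 4 and at 0 in the other 3 Dlk1+ libraries. The share of thinned cells with an Hspa1a UMI was 6.33% in that library and 0 in the others of its sort. The share of thinned cells with an Hsp90aa1 UMI was 100% in Dlk1+ replicate 3, where 4 of 4 cells held one.

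The 10 barcodes left out of the kept cells also carried chaperone transcripts in the Dlk1- libraries, to which they do not belong. They held 2.65 UMIs of the set per barcode (106 UMIs on 40 barcodes), against 0.162 on the other 728 barcodes that carried no cell. As CPM of the UMIs on those barcodes the set made 4080 and 4987, so the share of the whole set was not higher there. Hspe1 went the other way, with 41 of the 106 UMIs, which is 1578 CPM on the 10 barcodes, 507 on the other barcodes without cells and 201 on the barcodes of each library's own sort.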

How the results depend on the processing

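No member was called between sorts under any alternative, and between plates only Hspa1a was, without a filter (1 member among 14 genes, 0 among 5 without the well of most UMIs). Genes called between sorts, 2 in the main test, numbered 1 with cells of at least 2000 transcripts, 4 with the 10 barcodes put back, 1 with cells thinned to 2000 UMIs and 0 with limma-trend, where 316 genes had an unadjusted p under 0.05. Leaving out 1 library gave 1 to 19 between sorts and 0 to 1 between plates. Same-numbered libraries of the 2 sorts had deviations correlated at 0.037 to 0.064, each library best with its own number, which does not establish pairing. With the replicate number as a block 1 gene and 0 members were called.

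Fold changes near 0 turned sign. Between sorts, Hspd1 was -0.0035 with library size alone, -0.11 without a filter, -0.022 with at least 2000 transcripts, -0.036 with the 10 barcodes, -0.065 thinned, -0.017 without the well, -0.17 without well and filter, and -0.45 with limma-trend. Hsph1 was 0.0067 with library size alone, 0.041 and 0.022 with at least 500 and 2000 transcripts and 0.064 with the replicate block, and Hspa8 was 0.054 thinned. Without 1 library, Hspd1 ran from -0.16 to 0.24 and Hsph1 from -0.16 to 0.17. Between plates, Hspd1 was 0.15 with library size alone, a scaling that moved the median of all genes by 0.25. Hspe1 was -0.013 without a filter, -0.016 with at least 2000 transcripts, -0.0024 without Gm10800 and Gm26870, -0.021 thinned, -0.015 without the well and -0.028 without well and filter. Hspa5 was -0.018, -0.096, -0.0071, -0.054, -0.026 and -0.031 with at least 2000 transcripts, thinned, with no sort term, without the well, without well and filter, and with limma-trend. Dnajb1 was -0.031, -0.15 and -0.079 with at least 2000 transcripts, thinned and with limma-trend, Hsp90aa1 -0.075 and -0.036 with the first 2 of these, Hsp90ab1 -0.0100 with the first, and Hspa8 -0.11 with limma-trend. Without 1 library, the plate values ran from -0.13 to 0.14 for Hspa5, -0.27 to 0.089 for Hspd1, -0.089 to 0.080 for Hspe1, -0.17 to 0.25 for Dnajb1 and -0.12 to 0.34 for Hsph1. The cause of these turns was not tested.

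Without Gm10800 and Gm26870 in the totals the mean of Hspe1 was 256 CPM. Thinning lowered the mean r to 0.0111 for stress-induced pairs and 0.0348 for pairs between the classes. Shares thinned to 1000 UMIs were 80.6% for Hsp90ab1, 26.7% for Hspa5, 8.02% for Hspd1, 15.7% for Hspe1 and 58.0% for Hsp90aa1. Unthinned they were 37.4% for Hspa8, 58.7% for Hspa5, 36.2% for Hspd1, 37.9% for Dnajb1 and 91.0% for Hsp90aa1. Variance over mean at 1000 UMIs was 1.15 for Dnajb1 and 1.07 for Hsp90aa1, below Hspd1 at 1.27 and Hsp90ab1 at 1.22. Unthinned, where depth adds to it, it was 1.65 for Hspa8, 3.81 for Hsp90ab1, 4.61 for Hspa5, 1.79 for Hspd1, 1.75 for Hspe1, 2.40 for Dnajb1, 1.41 for Hsph1, 3.45 for Hsp90aa1 and 8.53 for Hspa1a. The Hspa1a and Hspa5 means rested on Dlk1+ replicate 4, at 29.2 and 12.4. Unthinned and without the well of most UMIs, an alternative added after seeing the data, that library was at 6.03 and 2.88, and the means were 2.73 for Hspa1a, 2.70 for Hspa5, 1.53 for Hspa8, 3.40 for Hsp90ab1, 1.60 for Hspe1, 2.41 for Dnajb1, 1.40 for Hsph1 and 2.76 for Hsp90aa1. In all, 175 alternatives of main results kept direction and side and 44 moved. The planned DESeq2 alternative and the sum of Hspa1a and Hspa1b were not run.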

Other observations

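Hspa1a UMIs were concentrated in few cells, and the cells differed in what else they held. After the well of most UMIs, the next cell was another of Dlk1+ replicate 4, with 10 Hspa1a UMIs among 8874. It also held 14 Hspa5 and 5 Dnajb1 UMIs and was thus among the 4 cells highest for Hspa5. Another cell of that library held 4 Hspa1a UMIs among 5472, with 3 of Dnajb1, 1 of Hspa5 and 80 of immediate early genes. The highest cell of Dlk1- replicate 4 held 4 Hspa1a UMIs among 7927, with 2 of Dnajb1, 4 of Hspa5 and only 8 of immediate early genes.

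The cells with most Dnajb1 came from 3 libraries. They held 11 and 8 UMIs in Dlk1+ replicate 1, 9 in Dlk1+ replicate 4 and 8 in Dlk1- replicate 4. Their immediate early UMIs numbered 91, 76, 87 and 119, and their cell cycle UMIs 28, 1, 9 and 0. Beyond the well of most UMIs, the cell with most Hspa5 was in Dlk1- replicate 2, with 19 Hspa5, 184 immediate early and 0 Dnajb1 UMIs.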
